A study of Mus musculus with 5 samples.

Results

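Aminoacyl-tRNA synthetases are the enzymes that join each amino acid to its transfer RNA before translation, and their mouse genes were described here across 5 arrays of 32D cells carrying different FLT3-ITD constructs. The genes were chosen by their symbol in the annotation of the Affymetrix Mouse430_2 array: the letters "ars" after 1 capital letter, with or without a closing 1 or 2, and in addition Eprs, Farsa and Farsb. This gave 35 of the 18193 genes with a probe set, 19 cytosolic and 16 mitochondrial (ending in 2). The rule reads symbols only, but the members were chosen with earlier results of these data known. Where a gene has several probe sets, the one with the largest 5-array mean stands for it. It passed the low-value filter where its highest value reached 2.75 (log2), the 60th percentile of all values. All 19 cytosolic and 15 of the 16 mitochondrial genes passed, each on every array. Sars2, the mitochondrial seryl-tRNA synthetase gene, did not pass (1.67 to 2.36).

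32D is a mouse myeloid progenitor line that depends on interleukin-3, and FLT3-ITD is a form of the FLT3 receptor tyrosine kinase whose internal tandem duplication makes it signal without ligand. The 5 groups were 32D cells stably transduced by retrovirus with ITD78, ITD598, ITD602, ITD611 or ITD613, with 1 array each. The labels do not say what the numbers stand for, nor whether a line is a clone or a pool, nor the species of the FLT3 sequence. All cells were starved for 3 h, of what is not stated, and then given a tyrosine kinase inhibitor (TKI), not named in the labels, for 1 h. No array without a construct or without the inhibitor was analysed here. A single array stands for each construct, so no difference was tested, there is no p-value, and each SD given measures how 4 constructs differ among themselves, not replicates.

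The deposited values were log2 values made by the authors with RMA, and array medians ran from 1.99 to 2.06. The title of the ITD602 array carries another date-like string than the other 4 titles. The labels do not say what it marks, and for ITD602 it cannot be told apart from the construct. On that array the 3 probe sets of the spiked-in control bioB read 5.74 to 6.12, against 2.05 to 2.95 on the others. The part of any such technical difference in the values of ITD602 was not tested. Of 11 myeloid progenitor markers 7 passed the filter (Mpo, Ctsg, Prtn3, Il3ra, Csf2rb, Ptprc and Spi1), while Kit, Cd34, Elane and Cebpa were below it on every array.

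Synthetases fall into class I and class II by the fold of their catalytic domain. In the cytosol several of them are held, with 3 scaffold proteins, in a multisynthetase complex, and the others act outside it. Mitochondria translate their own messages with a separate set of enzymes encoded in the nucleus, except that Gars and Kars each encode both the cytosolic and the mitochondrial form. Synthetase genes are known targets of the transcription factor ATF4, which raises amino acid supply genes under amino acid or other stress, and of MYC in growing cells.

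Many cytosolic genes shared their highest and their lowest array, with small differences, while the order of the arrays in between varied from gene to gene. ITD602 was highest for 15 of the 19, where 29.5% of the 9621 genes passing the filter were highest on ITD602, and ITD613 was lowest for 14 of the 19, against 29.4% of all genes. Each array was then centred on its median gene, a setting for which no share of all genes was computed. With it ITD602 was highest for 10 of the 19 and ITD613 lowest for 15. In the deposited values both held for 12 of the 19, against 15.5% of all genes. ITD78 was lowest for 4 others (Cars, Eprs, Farsa and Sars; 17.5% of all genes), and ITD602 for Qars (17.3%). ITD602 was above the mean of the other 4 arrays for 18 of the 19 (55.4% of all genes), and ITD613 below it for 17 (47.7%). The median difference of an array from the mean of the other 4 was 0.24 (log2) on ITD602, 0.12 on ITD611, 0.03 on ITD598, -0.08 on ITD78 and -0.24 on ITD613. Without the ITD613 array the median on ITD602 was 0.15, and without the ITD602 array that on ITD613 was -0.21. Over all 9621 genes these medians lay between -0.03 and 0.03. The median range of a cytosolic gene, highest minus lowest of the 5 arrays, was 0.43 (a 1.35-fold span), close to the 0.44 of all genes. No cytosolic gene spanned 2-fold, against 10.4% of all genes, and 7 spanned at least 0.5 (41.1% of all genes).

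**Figure D1:**
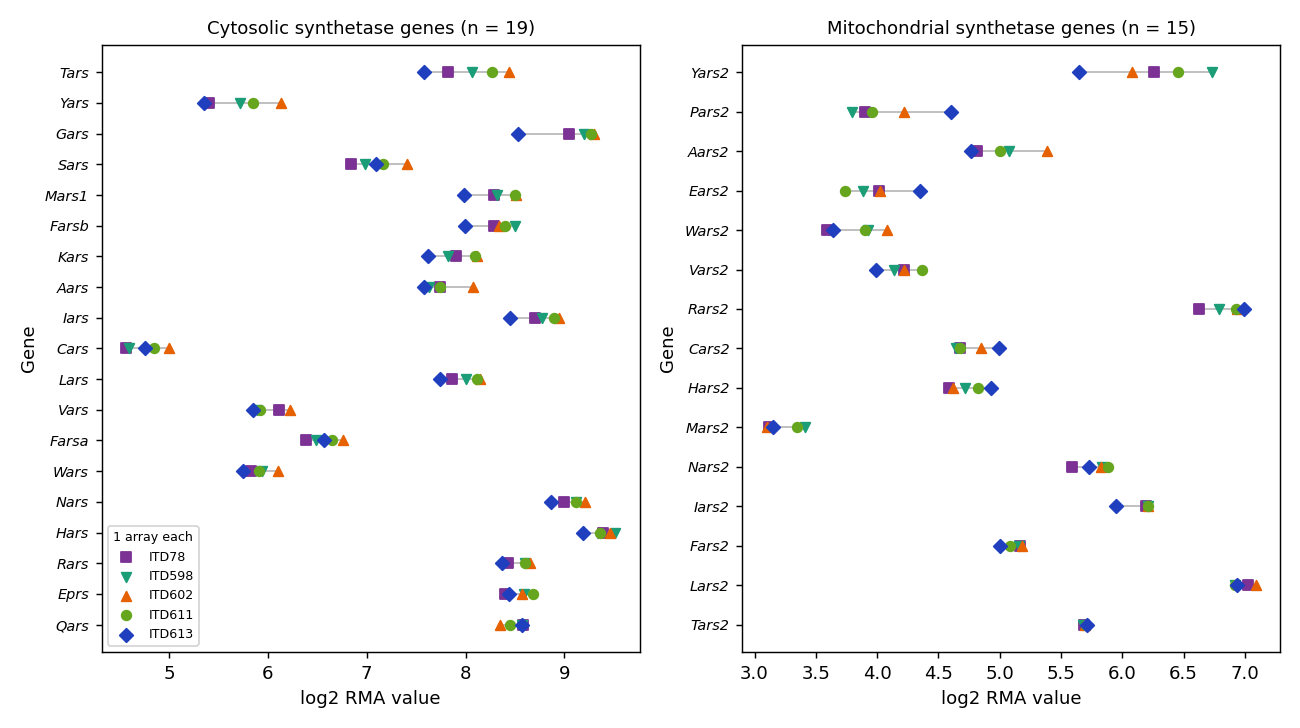
Log2 RMA values (x axis) of the 19 cytosolic (left) and 15 mitochondrial (right) synthetase genes that passed the filter, 1 symbol per array and gene, genes ordered by their range over the 5 arrays. Among the cytosolic genes the ITD602 symbol is the rightmost for 15 and the ITD613 symbol the leftmost for 14. Among the mitochondrial genes these counts are 4 and 5.

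In direct comparisons of 2 arrays, ITD602 was above ITD613 for 18 of 19 cytosolic genes (49.1% of all genes), with a median difference between ITD613 and ITD602 of -0.35. Qars was the exception. ITD78 was above ITD613 for 15 of 19 (43.4% of all genes), with a median difference between ITD613 and ITD78 of -0.13. ITD602 was above ITD78 for 18 of 19 (55.1% of all genes), again with Qars as the exception, and with a median difference of 0.24. Between ITD613 and ITD611 the median difference was -0.24, and between ITD613 and ITD598 it was -0.23. The steps between neighbours in the order of medians were smaller than those between other arrays. The median difference was -0.09 for ITD611 minus ITD602 and 0.10 for ITD611 minus ITD598. It was 0.12 for ITD598 minus ITD78 and, as above, -0.13 for ITD613 minus ITD78. Each of these steps goes down on the way from ITD602 to ITD613. These comparisons share arrays and are not independent of each other.

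**Figure D2:**
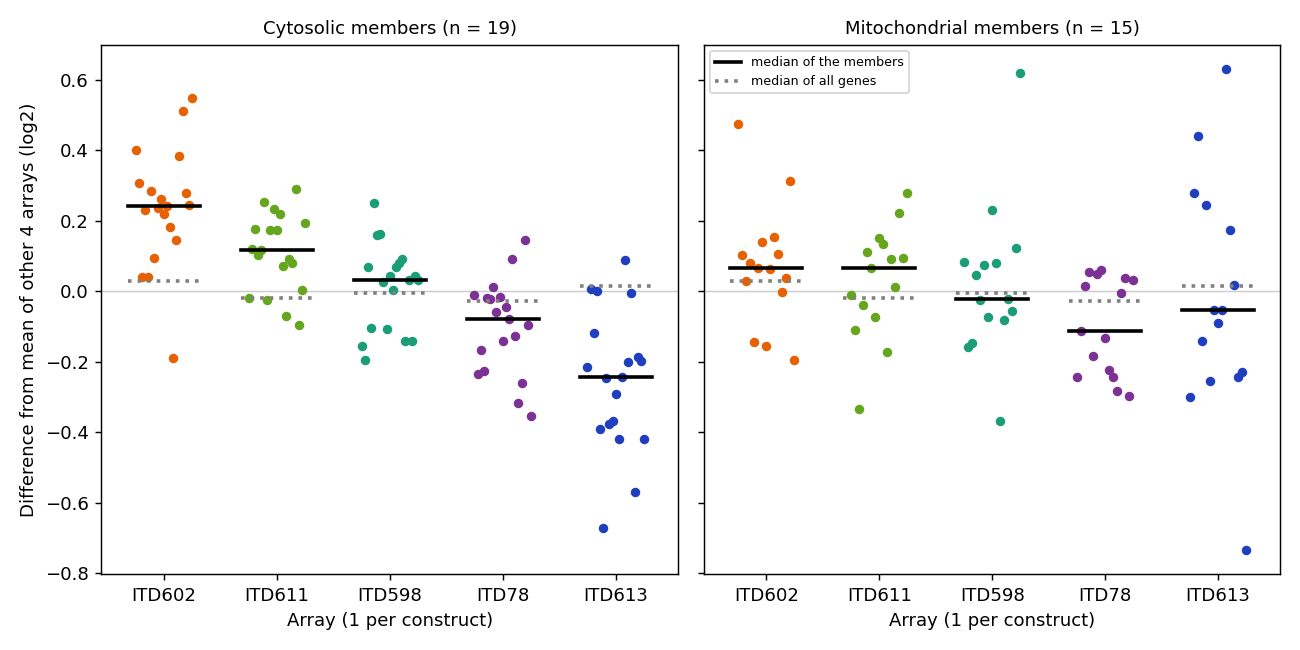
Difference of each array from the mean of the other 4 (log2, y axis) for each cytosolic (left) and mitochondrial (right) gene, with the median of the members as a solid line and that of all 9621 genes as a dotted line. The cytosolic medians step down from 0.24 on ITD602 to -0.24 on ITD613, and the mitochondrial medians lie between -0.11 and 0.07.

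The widest ranges among the cytosolic enzymes were those of Tars, Yars and Gars, none of them a member of the multisynthetase complex. Tars, the threonyl-tRNA synthetase gene, read 7.82 on ITD78, 8.06 on ITD598, 8.44 on ITD602, 8.27 on ITD611 and 7.58 on ITD613. ITD602 and ITD611 were high and ITD78 and ITD613 low, over a range of 0.86 (1.82-fold), and 85.4% of all genes had a smaller range. On ITD613 Tars was 0.57 below the mean of the other 4 arrays (8.15 ± 0.27 SD), and on ITD602 0.51 above it. Yars, the tyrosyl-tRNA synthetase gene, read 5.41, 5.72, 6.13, 5.85 and 5.36 on the same arrays in that order. ITD78 and ITD613 were nearly equal at the low end, and ITD602 was 0.55 above the mean of the others (5.58 ± 0.24). Gars, the glycyl-tRNA synthetase gene for both compartments, read 9.05, 9.19, 9.29, 9.27 and 8.53. Here ITD613 alone was set off: it lay 0.52 below the next array and 0.67 below the mean of the other 4 (9.20 ± 0.11), while the other 4 arrays lay between 9.05 and 9.29. ITD602 was 0.28 above the mean of its others with ITD613 among them and 0.12 above without it. Tars and Gars were the 2 cytosolic genes at least 0.5 below on ITD613 (9.51% of all genes), and Tars and Yars the 2 at least 0.5 above on ITD602 (4.39% of all genes). Each of the 3 genes has 1 probe set, so no second probe set bears on these values.

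The promoters of these 3 genes, and of Aars described below, are shown because all 4 hold the 8 letters TGATGNAA, the core of the element bound by ATF4 with C/EBP partners. The windows run from 250 bases before to 50 bases after the RefSeq start (GRCm38.p6), 5′ to 3′ on the strand of the gene. Capitals mark TGATGNAA on either strand, which reads TTGCATCA or TTTCATCA where it lies on the opposite strand, and the E-box CACGTG, the site of MYC and MAX.
Tars, chr15:11399609-11399908, minus strand: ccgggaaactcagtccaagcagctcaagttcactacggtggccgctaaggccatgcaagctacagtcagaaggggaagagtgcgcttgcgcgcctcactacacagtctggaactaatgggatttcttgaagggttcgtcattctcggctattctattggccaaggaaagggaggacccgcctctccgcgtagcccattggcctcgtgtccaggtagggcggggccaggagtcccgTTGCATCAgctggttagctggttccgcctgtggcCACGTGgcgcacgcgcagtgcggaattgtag
Yars, chr4:129189653-129189952, plus strand: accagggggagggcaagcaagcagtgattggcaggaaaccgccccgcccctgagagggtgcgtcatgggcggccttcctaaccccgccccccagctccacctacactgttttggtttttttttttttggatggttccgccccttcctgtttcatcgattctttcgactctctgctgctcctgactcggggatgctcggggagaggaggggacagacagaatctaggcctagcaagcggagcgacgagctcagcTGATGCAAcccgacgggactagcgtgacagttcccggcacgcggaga
Gars, chr6:55037751-55038050, plus strand: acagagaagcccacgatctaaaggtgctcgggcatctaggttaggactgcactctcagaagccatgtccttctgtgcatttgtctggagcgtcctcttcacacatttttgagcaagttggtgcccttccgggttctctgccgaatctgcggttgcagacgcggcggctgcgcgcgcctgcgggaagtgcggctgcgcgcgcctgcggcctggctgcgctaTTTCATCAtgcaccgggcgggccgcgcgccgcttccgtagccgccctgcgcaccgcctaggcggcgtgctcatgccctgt
Aars, chr8:111033592-111033891, plus strand: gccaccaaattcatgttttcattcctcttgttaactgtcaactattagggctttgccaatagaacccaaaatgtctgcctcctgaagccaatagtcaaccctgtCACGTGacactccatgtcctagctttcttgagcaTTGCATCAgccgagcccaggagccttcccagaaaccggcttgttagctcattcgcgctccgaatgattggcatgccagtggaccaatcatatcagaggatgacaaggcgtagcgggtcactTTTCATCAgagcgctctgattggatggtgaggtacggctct

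In Tars the element lies on the opposite strand at 15 to 8 bases before the start, and an E-box lies 20 to 25 bases after it. In Yars the element TGATGCAA is on the strand of the gene, from base 4 to base 11 after the start, and in Gars it reads TGATGAAA on the opposite strand at 30 to 23 bases before it. Aars holds it at 2 places, 112 to 105 bases before the start and again from base 10 to base 17 after it, with an E-box at 146 to 141 bases before. Iars, the gene for the isoleucyl enzyme, also holds both motifs (TGATGCAA on the opposite strand at bases 8 to 15 after the start). Of the 35 synthetase genes 26 matched the promoter table by symbol. TGATGNAA was found in the window of 5 of the 12 cytosolic genes (41.7%) and of 0 of the 14 mitochondrial genes, against 4.51% of all 27025 genes in the table. CACGTG was found for 4 of the 12 (Aars, Farsb, Iars and Tars; 33.3%) and for 1 of the 14 (Ears2), against 8.09% of all genes. No overlap of the 2 motifs occurs in the printed windows.

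The 5 cytosolic genes with TGATGNAA in the window had ranges from 0.49 to 0.86 (median 0.76), and the 7 without it from 0.23 to 0.56 (median 0.50). On ITD613 the first group lay 0.22 to 0.67 below the mean of the other 4 arrays, with a median difference of -0.42, and the second ran from -0.42 to 0.09 with a median of -0.12. On ITD602 the medians were 0.40 and 0.23. The values of both groups overlap: Mars1, Farsb and Kars, without the letters in this window, were within 0.04 of Iars on ITD613. A match is a run of letters and not a measured site, and these data hold no binding measurement.

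**Figure D3:**
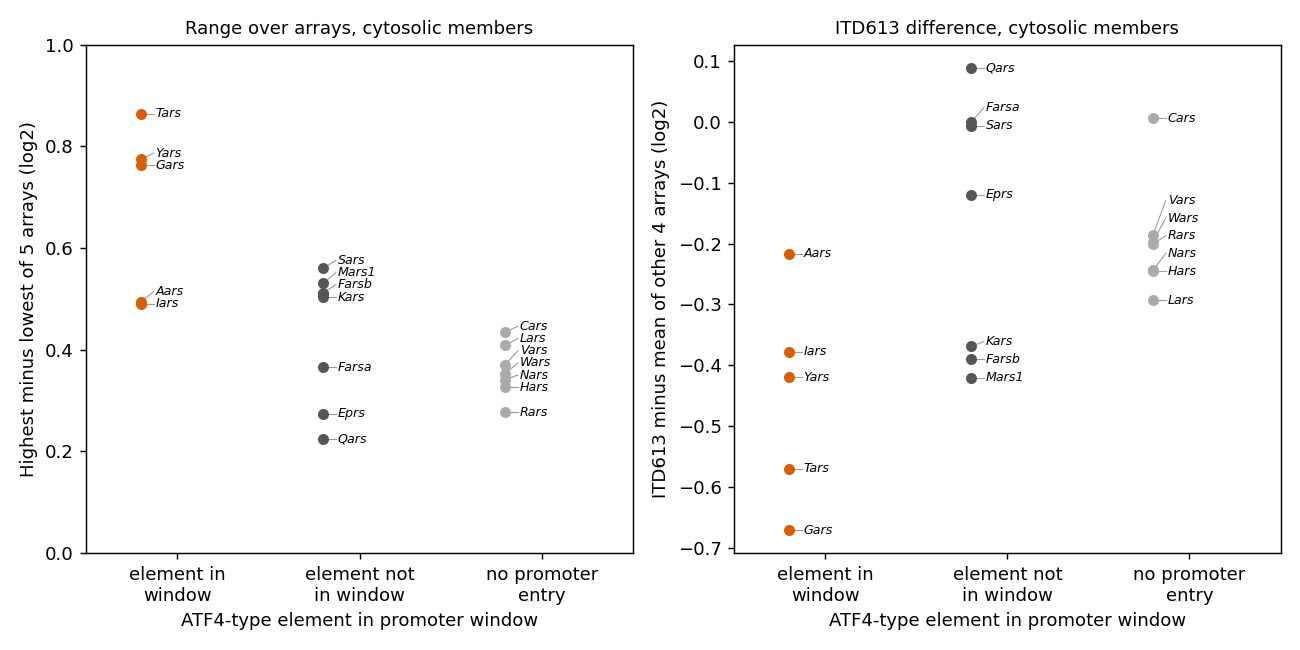
Range over the 5 arrays (left) and difference of ITD613 from the mean of the other 4 (right), both log2, for the 19 cytosolic genes, by whether the ATF4-type element was found in the promoter window (5 genes), was not found (7 genes) or the gene had no promoter entry (7 genes). Tars, Yars and Gars have the 3 widest ranges, and the groups overlap from 0.49 to 0.56.

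Of the other enzymes outside the complex, Aars, Sars and Cars were highest on ITD602. Aars, the alanyl-tRNA synthetase gene, read 7.74, 7.63, 8.07, 7.74 and 7.58 on ITD78, ITD598, ITD602, ITD611 and ITD613. ITD602 was 0.40 above the mean of the others (7.67 ± 0.08), which lay within 0.16 of each other, and ITD613 was 0.22 below its others. On the second Aars probe set these differences were 0.50 on ITD602 and -0.46 on ITD613. Sars, the seryl enzyme gene, read 6.84, 6.98, 7.40, 7.16 and 7.09, so that ITD602 was highest and ITD78 lowest while ITD613 was in the middle (-0.01 from the mean of the others). Cars, the cysteinyl enzyme gene, read 4.57, 4.60, 5.00, 4.85 and 4.76, with ITD602 again highest and ITD613 in the middle. Farsa, which encodes the catalytic alpha subunit of the phenylalanyl enzyme, went the same way: ITD78 was lowest at 6.39, ITD602 highest at 6.76, and ITD613 read 6.57. This rests on 1 of its 4 probe sets. The others were highest on ITD611 and not lowest on ITD78, and ITD602 differed from the mean of the others by -0.23, -0.004 and -0.07.

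Farsb, the gene of the beta subunit that pairs with Farsa, was lowest on ITD613 instead. It read 8.29, 8.50, 8.34, 8.40 and 7.99 in the order of arrays above, with ITD613 0.39 below the mean of the others (8.38 ± 0.09) and ITD598 highest. All 4 Farsb probe sets were lowest on ITD613, while of the 4 Farsa probe sets 2 were. The high reading of ITD598 belongs to 1 Farsb probe set: the other 3 were highest on ITD602, by 0.23, 0.31 and 0.29 against the mean of the others, where the one above gave 0.04. The remaining genes outside the complex, Hars, Nars, Vars and Wars (histidyl, asparaginyl, valyl and tryptophanyl enzymes), spanned 0.33 to 0.37. Each was lowest on ITD613, by 0.19 to 0.25 against the mean of the other 4, and Nars, Vars and Wars were highest on ITD602. Counting all probe sets that passed, 2 of 4 for Wars and 1 of 2 for Nars were lowest on ITD613. Another Wars probe set was 0.08 above the mean of the others there.

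The 7 measured enzymes of the multisynthetase complex (Eprs, Iars, Kars, Lars, Mars1, Qars and Rars) had a median difference of -0.29 on ITD613 and 0.22 on ITD602, beside -0.23 and 0.28 for the 12 outside it. Mars1, the methionyl enzyme gene, read 8.28, 8.32, 8.51, 8.50 and 7.98. ITD602 and ITD611 were equal within 0.02, and ITD613 was 0.42 below the mean of the others (8.40 ± 0.12). Kars, the lysyl enzyme gene for both compartments, read 7.90, 7.82, 8.12, 8.10 and 7.62, again with ITD602 and ITD611 together at the top and ITD613 0.37 below (7.99 ± 0.15). Iars read 8.71, 8.77, 8.94, 8.89 and 8.45, with ITD613 0.38 below (8.83 ± 0.11) and, on its second probe set, 0.61 below. Lars, the leucyl enzyme gene, had the same order over a range of 0.41.

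The other 3 complex members had the narrowest ranges of the cytosolic set. Rars, the arginyl enzyme gene, read 8.43, 8.61, 8.65, 8.61 and 8.37, which left ITD78 and ITD613 below the other 3 arrays. Eprs, which encodes the fused glutamyl and prolyl enzyme, read 8.40, 8.59, 8.57, 8.68 and 8.44, with the same 2 arrays low. Its difference of -0.12 on ITD613 was -0.48 with the mean of its 4 probe sets, 1 of which (1.92 to 3.69) lies in the low range described for the mitochondrial genes below, where values are shared. Qars, the glutaminyl enzyme gene, read 8.58, 8.57, 8.35, 8.45 and 8.57. It was the only cytosolic gene lowest on ITD602, and this rests on 1 probe set: the other 2 that passed the filter were 0.04 and 0.03 above the mean of the others on ITD602. Class I and class II enzymes gave like medians on ITD613 (-0.20 and -0.25, 9 genes each) and on ITD602 (0.24 and 0.26), Eprs being both.

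The mitochondrial genes did not repeat the order of medians of the cytosolic genes: their lowest median was on ITD78, not on ITD613. Of the 15, ITD613 was lowest for 5 (29.4% of all genes) and highest for 6 (35.7%). ITD602 was highest for 4 (29.5%) and lowest for 1 (17.3%). ITD602 was above the mean of the other 4 arrays for 11 (55.4%), and ITD613 below it for 9 (47.7%). ITD602 was above ITD78 for 12 (55.1%) and above ITD613 for 8 (49.1%). The median differences ran from -0.11 on ITD78 to 0.07 on ITD602 and ITD611, with -0.05 on ITD613. Their median range was 0.35 (1.27-fold), and 1 gene spanned 2-fold (10.4% of all genes). Without the ITD613 array 8 were highest on ITD602, and without ITD613 or without ITD598 none (0) spanned 2-fold. The shares of all genes with an array left out were not computed. Their means over the arrays ran from 3.23 to 6.98. Mars2, Wars2 and Ears2 reached below 3.74, the highest value that at least 100 probe sets of an array share.

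Yars2, the mitochondrial tyrosyl enzyme gene, had the widest range of all members and read 6.26, 6.73, 6.08, 6.45 and 5.65. ITD598 was highest, 0.62 above the mean of the others (1.8% of all genes were at least 0.5 above it there), and ITD613 lowest, 0.73 below the others (6.38 ± 0.28). A second probe set also had ITD613 lowest (5.37, a difference of -0.48) and ITD598 highest (5.93), but there ITD602 read 5.93 and the range was 0.56, so the low reading of ITD602 and the 2-fold span belong to 1 probe set. Pars2, the mitochondrial prolyl enzyme gene, went the opposite way: it read 3.90, 3.80, 4.22, 3.96 and 4.60, with ITD613 0.63 above the mean of the others (3.97 ± 0.18), where 12.6% of all genes were at least 0.5 above it. Ears2, which charges glutamate in mitochondria, was also highest on ITD613 and read 4.01, 3.88, 4.02, 3.73 and 4.35. Aars2, the mitochondrial alanyl enzyme gene, read 4.82, 5.08, 5.39, 5.00 and 4.77 with ITD602 0.47 above and ITD613 0.30 below the mean of the others. With Fars2, which ranged over 0.18, it was 1 of 2 mitochondrial genes highest on ITD602 and lowest on ITD613 (2 of 15, against 15.5% of all genes).

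Wars2, the mitochondrial tryptophanyl enzyme gene, read 3.59, 3.93, 4.08, 3.90 and 3.64, close to the range of shared values, with ITD78 and ITD613 low. Vars2, for valine, read 4.22, 4.14, 4.22, 4.36 and 3.99, lowest on ITD613. Cars2, Hars2 and Rars2 were highest on ITD613, by 0.28, 0.24 and 0.17 against the mean of the others, while Iars2 (5.95 on ITD613 and 6.19 to 6.21 elsewhere) and Fars2 were lowest there. Mars2 and Nars2 ranged over 0.31 and 0.29 with ITD613 between other arrays. The narrowest were Lars2, for leucine, which read 7.03, 6.92, 7.09, 6.92 and 6.94, and Tars2, for threonine, at 5.69, 5.68, 5.69, 5.70 and 5.71. The flat Tars2 signal again comes from 1 probe set. The other had ITD613 highest at 5.56 and ITD598 lowest at 5.16.

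There were 16 pairings of a cytosolic with a mitochondrial gene for the same amino acid in which both genes passed the filter. On ITD613 both genes lay below the mean of the other arrays in 10 of the 16, and the cytosolic gene lay below with its mitochondrial partner above in 5. Of all genes taken singly, 47.7% lay below it. The same lowest array was found in 5 pairings and the same highest array in 4, and the cytosolic gene had the wider range in 8. How often unrelated genes match in this way was not computed, so these counts do not show whether partners differ. Threonine gave the largest contrast in range, 0.86 for Tars against 0.03 for Tars2. For tyrosine both genes were low on ITD613 (-0.42 and -0.73), and on ITD602 Yars was 0.55 above the mean of the others while Yars2 was at -0.19, or at 0.22 on its second probe set. For alanine the differences were alike (0.40 and 0.47 on ITD602, -0.22 and -0.30 on ITD613). Eprs at -0.12 on ITD613 stood beside 0.44 for Ears2 and 0.63 for Pars2, the mitochondrial enzymes for its 2 amino acids.

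**Figure D4:**
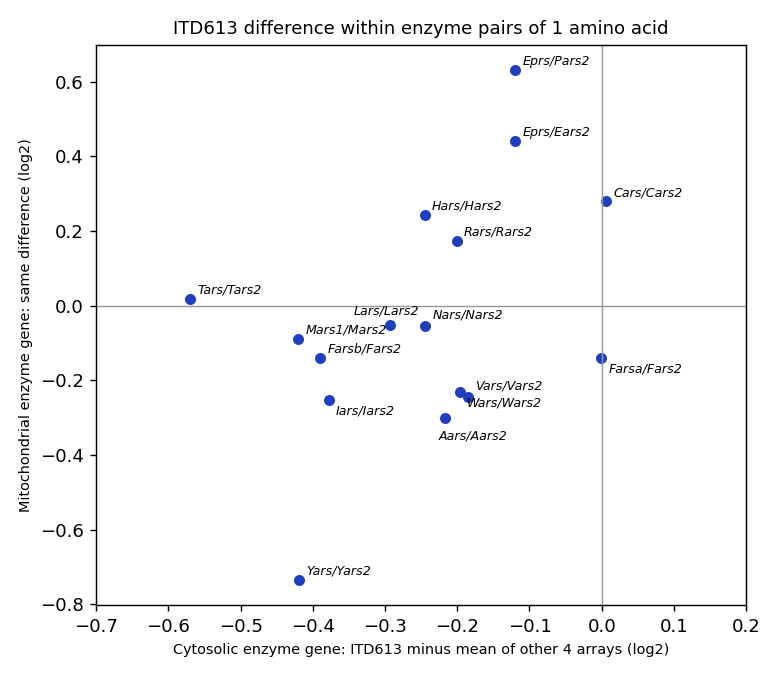
Difference of ITD613 from the mean of the other 4 arrays (log2) for the cytosolic gene (x axis) and the mitochondrial gene (y axis) of the same amino acid, 1 point per pairing (Eprs and Fars2 enter 2 each). Points are spread over the left side, with 10 below 0 on both axes and 5 with only the cytosolic gene below 0.

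The 3 scaffold genes of the multisynthetase complex, Aimp1, Aimp2 and Eef1e1, had medians of 0.19 on ITD602 and -0.19 on ITD613. Eef1e1 read 8.58, 8.87, 9.04, 8.86 and 8.55, highest on ITD602 and lowest on ITD613. Aimp1 read 8.02, 8.21, 8.07, 8.12 and 7.92, and Aimp2 read 7.86, 8.06, 8.12, 7.90 and 7.89, and their ranges were 0.29 and 0.25. Among 12 other genes of tRNA charging and editing, 6 were highest on ITD613 (35.7% of all genes) and 4 lowest there (29.4%). The 2 that spanned 2-fold (10.4% of all genes) were both lowest on ITD613: Pstk, the kinase that makes phosphoseryl-tRNA on the way to selenocysteine (5.28, 5.82, 5.85, 5.82 and 4.70), and Dtd1, the D-aminoacyl-tRNA deacylase (7.14, 7.50, 7.60, 7.36 and 6.48).

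Genes of the steps on either side of charging were read in the same way. The 4 measured cytosolic elongation factor genes (Eef1a1, Eef1b2, Eef1d and Eef2) had a median range of 0.18 and a median difference of -0.02 on ITD613. The 4 mitochondrial elongation factor genes (Tufm, Tsfm, Gfm1 and Gfm2) were each highest on ITD602 (29.5% of all genes) and lowest on ITD78 (17.5%), with medians of 0.24 and -0.29. Of 17 genes for RNA polymerase III and its factors, which make transfer RNA, 7 were lowest on ITD613 (29.4% of all genes) and 5 highest (35.7%), with a median of -0.04 there, and none spanned 2-fold (10.4% of all genes). The list of other charging genes had a median of 0.11 on ITD613. 

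Genes of the ATF4 pathway split into 2 directions on ITD613. Of 27 listed genes 22 passed the filter, 6 at least 0.5 below the mean of the other arrays on ITD613 and 6 at least 0.5 above it (9.51% and 12.6% of all genes), and 8 spanned 2-fold (10.4% of all genes). On ITD613, 9 of the 22 were highest (35.7% of all genes) and 9 lowest (29.4%). Both lowest on ITD613 and highest on ITD602 were 8 of the 22 (15.5% of all genes). Over all genes, 2826 were lowest on ITD613, and 1490 of these were also highest on ITD602. Phgdh, the first enzyme of serine synthesis, read 8.44, 9.00, 9.24, 9.21 and 7.21, and Asns, asparagine synthetase, read 7.81, 8.19, 8.43, 8.20 and 7.18. Both have ITD602 highest, ITD78 second lowest and ITD613 lowest. Trib3, a pseudokinase that restrains the pathway, read 5.38, 5.21, 4.98, 4.87 and 6.36, and Ddit3, the stress transcription factor CHOP, read 5.09, 4.54, 4.35, 4.20 and 5.68, both with ITD613 highest and ITD611 lowest. Atf4 itself, named after its values were seen, read 8.93, 8.97, 9.21, 8.87 and 8.27, a difference from the mean of the others of -0.72 on ITD613 and 0.45 on ITD602.

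**Figure D5:**
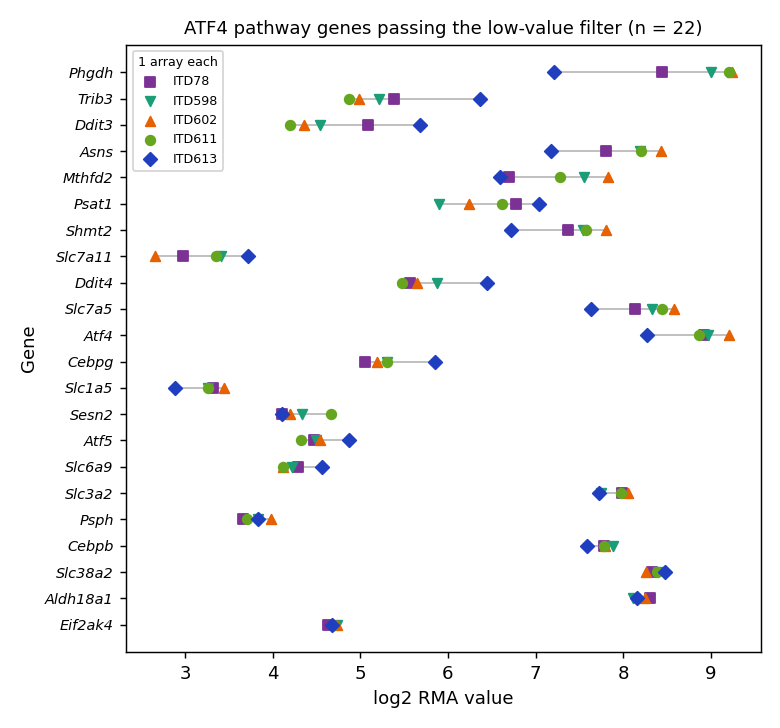
Log2 RMA values (x axis) of the 22 ATF4 pathway genes that passed the filter, 1 symbol per array, ordered by range. Phgdh, Asns, Shmt2, Slc7a5 and Atf4 have ITD613 at the left end and ITD602 at the right, and Trib3, Ddit3 and Ddit4 have ITD613 at the right end.

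The order of the array medians of the cytosolic synthetases was also that of the macrophage marker means and was reversed in the erythroid means. Over all 4 macrophage markers (Adgre1, Csf1r, Fcgr1 and Cd68) the mean log2 value was 2.92 on ITD78, 4.40 on ITD598, 4.77 on ITD602, 4.50 on ITD611 and 2.43 on ITD613, and 3 of the 4 passed the filter. Over the 11 myeloid progenitor markers it was 4.25, 4.86, 4.94, 4.72 and 4.02, and over 4 measured erythroid markers, of which Klf1 and Gata1 carried the difference, 4.93, 4.48, 4.20, 4.31 and 5.63. The 4 mast cell and basophil markers had means of 3.79, 4.33, 4.36, 4.21 and 5.36, and their genes differed in order. Fcer1a read 3.96 on ITD613 and 0.67 to 0.72 elsewhere, and Cpa3 was also highest on ITD613, but Gata2 was lowest there and Mcpt8 highest on ITD598. Of the 4 measured lymphoid markers 1 passed the filter. The part of these differences in the synthetase values was not tested. In a whole-culture RNA sample, fewer cells of a kind and less RNA per cell cannot be told apart.

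All probe sets of the members were then counted without choosing 1 per gene. Of 38 cytosolic probe sets that passed the filter, 34 were below the mean of the other arrays on ITD613 and 32 above it on ITD602, with medians of -0.23 and 0.23. Among the 19 that did not represent their gene, 17 were below on ITD613 and 14 above on ITD602. Of 22 mitochondrial probe sets, 13 were below on ITD613 and 17 above on ITD602, with medians of -0.07 and 0.08. The matching shares over all probe sets were not computed, so these counts show only whether probe sets of the members go the same way. Over the genes whose mean lay in the level range of the cytosolic members (5776 genes), 30.7% were lowest on ITD613 and 32.3% highest on ITD602.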

How the data were processed

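Total RNA of 5 cultures of 32D cells, 1 per FLT3-ITD construct, was hybridised to Affymetrix Mouse430_2 arrays. The authors deposited log2 values of 45101 probe sets from RMA, which subtracts background, normalizes the arrays to each other and summarises each probe set, and the submitters' processing notes name this method. No source used here gives its version or chip definition, and the log base was inferred from the range of the values (-0.07 to 13.45). Control probe sets (64) and those with several symbols (932) were left out, 34945 had 1 symbol, and symbols came from the platform annotation. RMA compresses low values, and values up to 3.74 are shared by many probe sets.

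For each gene, the difference of an array from the mean of the other 4, the range over the 5 arrays, and the arrays with the single lowest and highest value were computed (Python 3.11.15, pandas 2.3.3, numpy 2.4.6) for all 9621 genes passing the filter. Differences of at least 0.5 or 1 (log2) are 1.41-fold or 2-fold. The share of all genes past the same limit is given beside the counts of the main setting. The functions were tested on simulated data. Promoters come from a RefSeq table (GRCm38.p6). With 1 array per construct there is no test.

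Values on all 5 arrays are given for the 10 cytosolic and 6 mitochondrial genes with the widest ranges, the 3 and 2 with the narrowest, the scaffold genes, and up to 4 genes per pathway list that span 2-fold. The members and lists were chosen with earlier results of these data known. Alternatives were other probe set choices, filters, low values raised to 3.74, the median of the other arrays, centring of arrays, and leaving out each array.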

Additional observations from a re-analysis of the deposited data

How the results depend on the processing

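The cytosolic median difference on ITD613 (-0.24) kept its direction and stayed within 1.5 times in all alternatives tried, as did the count of 14 genes lowest on ITD613. The count of 15 highest on ITD602 was 10 with arrays centred on the median gene, just at that limit, and at least 15 in the other alternatives. A value was counted as moved when it differed by over 0.05 (log2) and over 1.5 times, and a count when it differed by over 1.5 times. No paired analysis was possible because each construct has 1 array. Of the cytosolic medians, that of ITD602 was 0.15 without the ITD613 array. That of ITD78 was -0.16 without ITD613 and -0.03 with arrays centred on the median gene. That of ITD611 was 0.06 without ITD78 and 0.19 without ITD602, and that of ITD598 was 0.09 without ITD602 and -0.07 without ITD613. The mitochondrial medians are small and less stable. On ITD78 the value of -0.11 became -0.05 with the mean of probe sets, -0.06 without the low-value filter, with the filter at the 70th percentile or with centred arrays, and -0.01 with low values raised. On ITD598 it was 0.04 with the mean of probe sets, and on ITD611 0.01 with low values raised. On ITD613 the mitochondrial median was -0.12 with the mean of probe sets or without ITD78 and -0.13 with centred arrays. With centred arrays 8 mitochondrial genes were lowest on ITD613, and without ITD613 8 were highest on ITD602. For counts under the alternatives no share of all genes was computed. No mitochondrial gene (0) spanned 2-fold with the mean of probe sets, with _x_at and _s_at probe sets left out, without ITD598 or without ITD613. The cause of these moves was not tested, apart from the arrays left out. Of 460 values of single named genes under the alternatives, 50 moved by these limits, and 0 differences of at least 0.5 turned their sign.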
